A study of Mus musculus with 5 samples.

Results

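Stress-state cells of the mouse ileal epithelium were defined by the transcripts found in each cell. Cells were kept when 500 or more genes were detected and mitochondrial UMIs made up no more than 20%. A kept cell counted as a member when at least 3 of Areg, Ereg, Atf3, Acta1, Cdkn2b, Egln3 and Bmp2 had a UMI. It also had to have a UMI for fewer than 4 of the 7 host-defence genes Ccl20, Duoxa2, Nos2, Cxcl2, Adm, Phlda1 and Pfkfb3. A UMI is a molecular tag that counts each captured transcript once. By this rule 7495 of 18955 filtered cells were members, out of 19404 cells in the deposited matrices. The cells came from 5 droplet libraries of epithelial cells of the distal small intestine of C57BL/6 mice aged 8 to 12 weeks. In 3 libraries the mice had sham surgery, and in 2 a length of small intestine had been resected. The labels give no genetic change for either group and do not say how many animals each library holds, so p-values measure only the spread between these libraries.

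Areg (amphiregulin) and Ereg (epiregulin) encode ligands of the EGF receptor, which are shed from the cell surface and act on neighbouring epithelial cells, and both are known in the gut for their part in repair after injury. Atf3 encodes a transcription factor of the ATF/CREB family that is made quickly after many kinds of stress and binds the cAMP response element. Cdkn2b encodes p15, an inhibitor of the kinases that drive entry into the cell cycle, Egln3 a prolyl hydroxylase that marks hypoxia-inducible factor for degradation, Bmp2 a bone morphogenetic protein, and Acta1 the actin of skeletal muscle.

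Areg and Ereg are neighbours on mouse chromosome 5, in a group of EGF receptor ligand genes with Epgn and Btc. In RefSeq on GRCm38.p6, the build named in the submitters' processing notes as GRCm38 or mm10, Ereg spans chr5:91074617-91093649 and Areg spans chr5:91139599-91148432, with 45950 bases between them. The promoters of Areg, Atf3 and Cdkn2b, the 3 genes found in most members, are printed here because Atf3 belongs to the family that binds TGACGTCA. Each line gives the 250 bases before the RefSeq start site, 5′ to 3′ on the strand of the gene, and capitals mark TGACGTCA and its core TGACG on either strand.
Areg, chr5:91139349-91139598, plus strand: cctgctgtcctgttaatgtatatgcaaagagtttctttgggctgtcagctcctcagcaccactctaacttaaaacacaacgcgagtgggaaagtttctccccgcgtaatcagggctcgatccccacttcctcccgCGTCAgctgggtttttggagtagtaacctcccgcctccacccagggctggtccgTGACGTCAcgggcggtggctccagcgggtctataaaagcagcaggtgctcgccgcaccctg
Atf3, chr1:191183334-191183583, minus strand: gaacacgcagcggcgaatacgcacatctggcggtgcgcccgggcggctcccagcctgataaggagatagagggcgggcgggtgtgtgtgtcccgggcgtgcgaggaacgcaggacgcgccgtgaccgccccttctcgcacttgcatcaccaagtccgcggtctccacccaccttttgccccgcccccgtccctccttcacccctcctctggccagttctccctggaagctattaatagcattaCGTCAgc
Cdkn2b, chr4:89311033-89311282, minus strand: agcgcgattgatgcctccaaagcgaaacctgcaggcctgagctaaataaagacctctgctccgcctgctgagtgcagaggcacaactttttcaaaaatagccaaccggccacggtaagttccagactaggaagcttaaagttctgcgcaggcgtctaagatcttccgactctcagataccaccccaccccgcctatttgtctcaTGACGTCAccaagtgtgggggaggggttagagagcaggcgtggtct

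TGACGTCA began at position -61 from the start site in Areg and at -46 in Cdkn2b, while Atf3 held the core TGACG alone, with its first base at -7. The promoter table matched 5 of the 7 stress genes (Areg, Atf3, Acta1, Cdkn2b and Egln3). TGACGTCA was found in 2 of these 5, against 1.77% of the 27025 genes outside chromosome 18 with a promoter of the same length. TGACG, which the full element contains on both strands, was found in 4 of the 5, against 19.8% of all genes. The AP-1 motif TGANTCA was found in 0 of the 5, against 7.82% of all genes. These matches describe the letters of the windows.

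The members made up 692 of 1296 filtered cells in sham 1 (53.4%, exact Clopper-Pearson 95% interval 50.6 to 56.1%), 1609 of 3914 in sham 2 (41.1%) and 614 of 2848 in sham 3 (21.6%, interval 20.1 to 23.1%). They made up 1803 of 3792 cells in resection 1 (47.5%) and 2777 of 7105 in resection 2 (39.1%). These intervals cover counting error only. Sham 3 stood lowest and sham 1 highest, so the sham libraries enclosed both resection libraries. Sham 3 also stood apart in the cells that the rule leaves out. The exclusion by 4 or more host-defence genes removed 816 cells with at least 3 stress genes from sham 3, 75 from sham 1, 15 from sham 2, 15 from resection 1 and 291 from resection 2. Without that exclusion the share of cells with at least 3 stress genes was 59.2%, 41.5%, 50.2%, 47.9% and 43.2% in sham 1, sham 2, sham 3, resection 1 and resection 2. Sham 3 then lay between the other sham libraries.

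**Figure D1:**
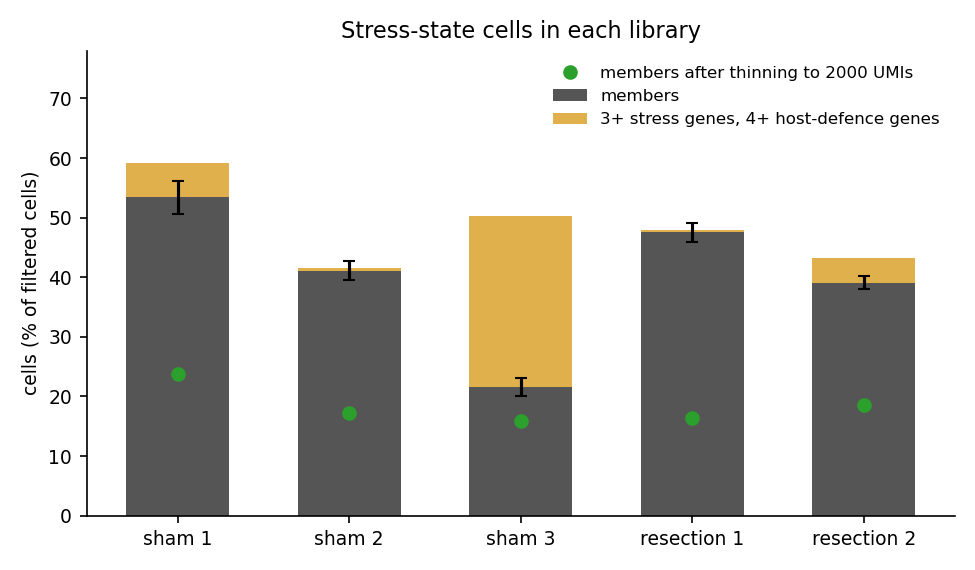
Share of filtered cells in each of the 5 libraries (y axis, percent): grey bars are members with exact 95% binomial intervals, yellow adds cells with 3 or more stress genes and 4 or more host-defence genes, and green points are members after thinning every cell to 2000 UMIs. The yellow part is largest in sham 3, where the member share is 21.6%, and thinning brings all 5 libraries to between 15.8% and 23.8%.

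The rule marks a range of cells and not a separate type. Among all members, 3282 (43.8%) had exactly 3 stress genes, the fewest allowed, and 3902 filtered cells had exactly 2 and fell just outside. All 7 genes were found in 125 members. Cells just inside the threshold had a mean of 6.67 UMIs of the 7 genes in sham 1, against 3.74 just outside, with median depths of 5591 and 5624 UMIs. In the remaining libraries the cells just inside were deeper. Their median depths were 4796.5, 6660, 5559.5 and 4833 UMIs in sham 2, sham 3, resection 1 and resection 2. Just outside they were 4448, 5889, 5365.5 and 4377 UMIs. On the side of the exclusion, 872 members had 3 host-defence genes. Deeper cells pass the rule more often. The median depth of cells without any of the 7 genes was 4162.5 UMIs, and it was 5231 UMIs in cells with 3 of them and 10577 UMIs in cells with all 7. When every cell was thinned to 2000 UMIs, 23.8%, 17.3%, 15.8%, 16.5% and 18.5% of cells were members in sham 1, sham 2, sham 3, resection 1 and resection 2, with no cell left out as too shallow.

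Most members lay in clusters of absorptive cells, the class that also made up most of the filtered cells. Clusters formed in each library without the 14 rule genes and named from markers put 5520 members (73.6%) in enterocyte-like clusters, which held 62.9% of all filtered cells and where 22.5 to 63.9% of the cells of a library were members. After thinning, 22.5 to 39.5% of enterocyte-like cells were members. The lowest shares were in 4 clusters, 1 in each library but sham 1, that had Hells, a gene of DNA replication and chromatin, and the ion cotransporter gene Slc12a2 among their 10 leading genes. Several of their other leading genes also serve DNA replication, and the stem cell markers Lgr5, Olfm4 and Ascl2 were not among them, so they are called Hells and Slc12a2 clusters here. Their cells were members in 2.63 to 6.90% of cases, and in 0 to 0.862% after thinning, although their median depths of 4341 to 6041.5 UMIs were close to the 4118 to 5964 UMIs of enterocyte-like cells. Paneth-like cells were members in 17.7 to 49.8% of cases at median depths of 6183.5 to 19452 UMIs, and in 0.549 to 3.78% after thinning. T cell-like cells were members in 21.2 to 66.7% of cases and in 11.1 to 37.0% after thinning. The T cell-like clusters also had mean enterocyte marker scores of 0.71 to 0.83, against 0.60 to 0.99 in enterocyte-like clusters. In this score each marker runs from 0 in the lowest cluster of a library to 1 in the highest. The part of enterocyte transcripts in the membership of T cell-like cells was not tested. T cell-like cells came to 434 in all. A further 957 members (12.8%) lay in clusters without a name. Called doublets were kept in the counts given here, and 1.30 to 8.93% of members and 0.662 to 3.60% of other cells carried that call. Of all members, 161 (2.15%) had a barcode that also occurred in another library, against 1.94% of other cells.

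Within the enterocyte-like clusters, the cells were unevenly spread. The enterocyte-like cluster richest in cells with at least 3 stress genes held them at 95.0% in sham 1, 82.3% in sham 2, 94.2% in sham 3, 87.4% in resection 1 and 93.7% in resection 2. By comparison, the other enterocyte-like clusters ranged from 40.7 to 68.9% in sham 1, from 13.5 to 55.9% in sham 2, from 20.8 to 94.1% in sham 3, from 18.4 to 74.4% in resection 1 and from 15.3 to 77.5% in resection 2. In sham 1, sham 2, resection 1 and resection 2 the richest cluster was 79.5 to 86.4% members, and Dusp5, F3 and Cldn23 were among its 10 leading genes in each of those 4. Sham 3 held 2 clusters at nearly the same share. The larger, of 461 cells, had the same 3 genes and Cldn4 among its 10 leading genes, and 94.1% of its cells had at least 3 stress genes. Because 72.7% of its cells had 4 or more host-defence genes, 24.9% were members. The other, of 327 cells, had Apoa4, Ppp1r15a and Ddit3 among its leading genes, and 82.6% of its cells had 4 or more host-defence genes and 14.7% were members.

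The 2 ligands of the EGF receptor come first, and then the other rule genes. Levels are given as CPM, the UMIs of a gene summed over the members of a library and scaled to their total UMIs, and these values describe the choice of cells. Areg stood at 423, 648 and 544 CPM in the members of sham 1, 2 and 3 and at 342 and 567 CPM in those of resection 1 and 2. Other filtered cells held 233, 97.1 and 505 CPM in sham 1, 2 and 3 and 72.9 and 161 CPM in resection 1 and 2. Members and the remaining cells were closest in sham 3, where the remaining cells include the 816 excluded by host-defence genes. An Areg UMI was found in 79.0 to 91.2% of members and in 15.8 to 27.6% of the cells of the Hells and Slc12a2 clusters, the lowest share of any class in those 4 libraries. Ereg was rarer, with 83.5, 80.1 and 64.2 CPM in sham members and 56.6 and 79.4 CPM in resection members, and a UMI in 28.8 to 49.0% of members against 2.49 to 5.17% of cells in those clusters. The resection members lay within or below the sham values for both ligands.

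The transcription factor and the cell cycle inhibitor were found in a similar share of cells as amphiregulin. Atf3 stood at 253, 363 and 362 CPM in sham members and at 333 and 391 CPM in resection members. An Atf3 UMI was present in 82.7 to 87.9% of members but also in 18.4 to 49.5% of cells in the Hells and Slc12a2 clusters. Cdkn2b stood at 159, 316 and 302 CPM in sham members and at 199 and 306 CPM in resection members, with a UMI in 76.9 to 88.1% of members. The groups overlapped for both genes. Areg and Atf3 occurred together in 5530 members (73.8%), and 242 members (3.23%) had neither. The most frequent combination was Areg with Atf3 and Cdkn2b and no other stress gene, in 1201 members (16.02%).

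Bmp2, Acta1 and Egln3 were found in fewer cells. Bmp2 stood at 105, 101 and 94.5 CPM in the members of sham 1, 2 and 3 and at 199 and 167 CPM in those of resection 1 and 2. Acta1 stood at 78.4, 88.5 and 67.9 CPM in sham members and at 109 and 89.7 CPM in resection members. For Bmp2 and Acta1 both resection libraries exceeded every sham library among members of all classes, narrowly so for Acta1. These CPM carry no TMM scaling between libraries, and whether the narrow order of Acta1 holds with it is not given here. The same order was found for 7.41% of all genes tested in members, counted on TMM-scaled CPM and so on another scale. In enterocyte-like members alone the groups overlapped for both genes. There Bmp2 stood at 235, 140 and 139 CPM in sham and at 297 and 216 CPM in resection. Acta1 stood at 147, 124 and 106 CPM in sham and at 155 and 117 CPM in resection. Of the 12 smooth and skeletal muscle markers, Mylpf, a myosin light chain of skeletal muscle, was the one with a level above 1 CPM in members. It stood at 1.97, 4.50, 5.87, 2.84 and 4.83 CPM in sham 1, sham 2, sham 3, resection 1 and resection 2, and averaged 4.22 CPM in other cells. The 12 markers summed to 2.12 to 6.26 CPM in members. Des and Myl9 were at 0 in members of every library, and Acta2 in 4 of the 5 libraries. Their part in the Acta1 level was not tested. Egln3 was found at 21.4 to 52.4 CPM with a UMI in 18.2 to 28.0% of members.

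**Figure D2:**
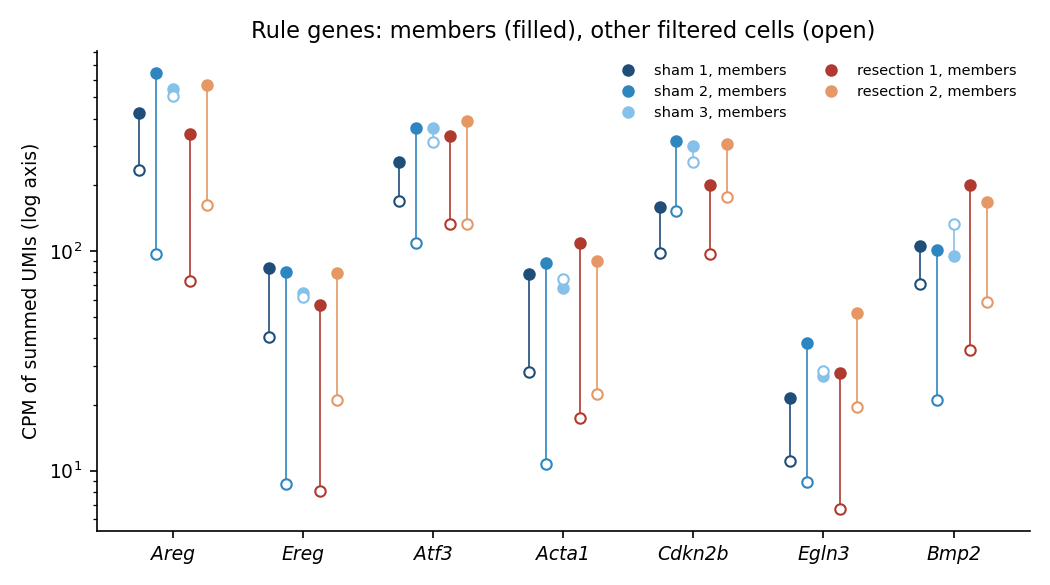
CPM of summed UMIs (log axis) of the 7 stress genes in members (filled points) and in all other filtered cells (open points), with 1 line per library. In sham 3 the filled and open points lie close together, as for Areg at 544 and 505 CPM, and Bmp2 reaches 199 and 167 CPM in the resection members.

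The enterocyte-like members were then set against the other enterocyte-like cells of the same library, as a description without a test, because the same cells chose the members. A gene counted as higher or lower when it differed by at least 1.5-fold in every library, on a log2(CPM + 10) scale, among genes with at least 20 CPM in either set of cells. Edn1, which encodes the vasoactive peptide endothelin 1, was the only one of 4575 genes to be higher (0.0219%), and 0 were lower. Edn1 stood at 232, 99.4, 185, 111 and 92.4 CPM in the members of sham 1, sham 2, sham 3, resection 1 and resection 2. In the other enterocyte-like cells it stood at 120, 35.5, 96.5, 35.7 and 34.7 CPM. The mean log2 ratio was 1.13 ± 0.23 (SD, n = 5 libraries). Without sham 3, 5 genes were higher.

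The other enterocyte-like cells include the cells removed by the host-defence genes, most of which carry stress genes too. A second reference, added after the data were seen, took enterocyte-like cells with 0 to 2 stress genes and fewer than 4 host-defence genes. Against it, 28 of 4600 genes (0.609%) were higher and 0 were lower. Edn1 again led, at 55.9, 31.1, 35.2, 35.8 and 22.5 CPM in the reference cells of sham 1, sham 2, sham 3, resection 1 and resection 2 and a mean log2 ratio of 1.69 ± 0.30 (SD, n = 5). Dusp5, which encodes a nuclear phosphatase of the kinase ERK, stood at 297, 170, 76.6, 227 and 104 CPM in members. It stood at 78.2, 62.5, 12.4, 78.5 and 22.9 CPM in the reference cells. Its mean log2 ratio was 1.66 ± 0.27 (SD, n = 5), and members exceeded the reference in every library.

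Among these 28 genes were another EGF receptor ligand and feedback inhibitors of the same pathway. Hbegf, which encodes heparin-binding EGF-like growth factor, stood at 457, 350, 329, 524 and 380 CPM in members. It stood at 147, 172, 62.2, 294 and 166 CPM in the reference cells, a mean log2 ratio of 1.35. Errfi1, an inhibitor of the EGF receptor that is made in response to it, had a mean log2 ratio of 1.05. Of the 6 measured genes of the EGF ligand and receptor list, these 2 were higher, and the list's median was -0.00. The others included Dusp6, an ERK phosphatase like Dusp5, at -0.00, and Adam10, a protease that sheds surface proteins, at -0.10. The median over all 4600 genes was 0.01.

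Immediate-early genes, which are transcribed within minutes of a stimulus, were the list with most members among the 28. They made up 8 of the 18 measured genes of that list, whose median log2 ratio was 0.90. Egr1, a zinc-finger transcription factor of this group, stood at 343, 187, 228, 588 and 260 CPM in members and at 167, 100.3, 45.4, 331 and 116 CPM in the reference cells (mean log2 ratio 1.17). Klf6, a Krüppel-like factor, stood at 1089, 634, 532, 723 and 531 CPM in members and at 424, 321, 169, 409 and 291 CPM in the reference (mean log2 ratio 1.11). Fosb, Egr2 and Zfp36 had mean log2 ratios of 1.10, 1.08 and 1.09. Against all other enterocyte-like cells the list's median fell to 0.43, with 0 of 18 past 1.5-fold in every library. In that comparison 11 of the 18 were above 0 in every library, against 10.1% of all 4575 genes. Immediate-early genes are also known to rise while tissue is dissociated into single cells, and the part of dissociation was not tested.

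The 28 also held genes outside these lists. Cldn4, a tight junction claudin, stood at 143, 66.7, 64.9, 14.6 and 28.5 CPM in the members of sham 1, sham 2, sham 3, resection 1 and resection 2. It stood at 53.7, 17.8, 6.75, 5.29 and 9.60 CPM in the reference cells, a mean log2 ratio of 1.31. Cldn23, another claudin, had a mean log2 ratio of 1.25, and F3, which encodes tissue factor, the cell-surface starter of blood clotting, had 1.23. Rap2b, a small GTPase, and Trib1, a pseudokinase, had 1.21 and 1.17, and Ifrd1, a gene of the villus tip list, had 1.20. Sham 3 had the highest ratio of the 5 libraries in 22 of the 28 genes and sham 1 in the other 6. In sham 3, 5 genes exceeded 4-fold, namely Edn1, Hbegf, Cldn4, Ifrd1 and Egr1.

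**Figure D3:**
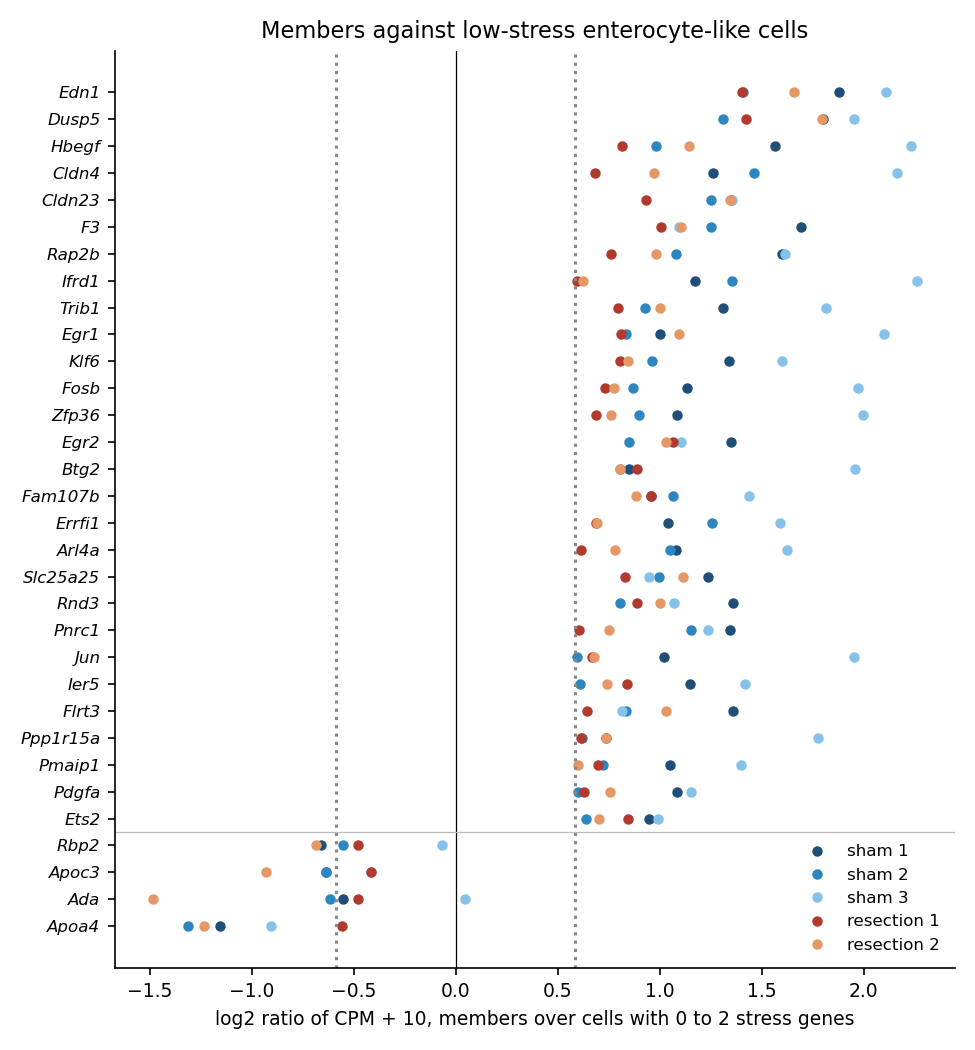
Log2 ratio of CPM + 10 between enterocyte-like members and enterocyte-like cells with 0 to 2 stress genes (x axis), 1 point per library. Above the horizontal line are the 28 genes higher by at least 1.5-fold in every library (dotted lines). Below it are Apoa4 and Ada of the villus tip list and Apoc3 and Rbp2 of the proximal absorptive list. Ifrd1, also of the villus tip list, is among the 28. The 28 genes range in mean from Edn1 at 1.69 downward, and Apoa4 has a mean of -1.03.

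In the other stress lists, at most 1 gene each passed 1.5-fold in every library. For the unfolded protein response of the endoplasmic reticulum, 0 of 12 measured genes passed, the median was 0.22 and the chaperone Hspa5 was at 0.41. Still, 8 of these 12 were above 0 in every library and 0 below, where 13.3% of all 4600 genes were above 0 and 7.11% below. For the integrated stress response, 1 of 6 passed, Ppp1r15a, which encodes the phosphatase subunit GADD34, at 0.90, whereas Atf4, the transcription factor at the centre of that response, was at 0.21. For heat shock genes 0 of 8 passed (median 0.14), and for hypoxia and glycolysis genes 0 of 12 (median 0.06). In the list of p53 targets and cell cycle inhibitors, Pmaip1, a BH3-only regulator of cell death, was the 1 of 9 that passed, at 0.89. Gadd45a was close at 0.83 but fell short of 1.5-fold in 1 or more libraries. Mitochondrial transcripts had a median of -0.03 over 12 genes, 4 of them below 0 in every library. The median mitochondrial share of UMIs was 14.6, 9.06, 7.56, 12.2 and 9.56% in enterocyte-like members of sham 1, sham 2, sham 3, resection 1 and resection 2, and 13.7, 9.08, 7.61, 12.1 and 9.51% in the reference cells. Members were lower in sham 2 and sham 3 and higher in the other 3 libraries.

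Proximal absorptive genes leaned lower in members against both references. For distal and microvillus genes the direction depended on the reference. In these lists 0 genes were past 1.5-fold in every library. Apoa4, an apolipoprotein of chylomicrons from the villus tip list, stood at 540, 468, 132, 6697 and 2590 CPM in enterocyte-like members of sham 1, sham 2, sham 3, resection 1 and resection 2. It stood at 1217, 1179, 256, 9868 and 6111 CPM in the reference cells. Its mean log2 ratio was -1.03 ± 0.31 (SD, n = 5), and members were lower in every library. The villus tip list as a whole was split. Of its 11 measured genes, 2 were below 0 in every library and 1, Ifrd1, above, with a median of -0.07. Against all other enterocyte-like cells 4 were below and 1 above, with a median of -0.18. Rbp2, the cellular retinol-binding protein of enterocytes, had a mean log2 ratio of -0.49, and Apoc3, another apolipoprotein, had -0.60. For the proximal absorptive list, 5 of 10 measured genes were below 0 in every library and 0 above, with a median of -0.30, where 7.11% of all genes were below 0. The same count, 5 of 10, was found against all other enterocyte-like cells, where 6.16% of all genes were below 0. Of the distal absorptive list, of ileal bile acid and similar genes, 4 of 15 were above 0 in every library and 1 below, with a median of 0.02. They included the bile acid transporter genes Slc10a2 and Slc51a, at mean log2 ratios of 0.46 and 0.23, and the bile acid receptor gene Nr1h4, at 0.33. Of the microvillus list, 6 of 12 were above 0 in every library and 0 below, with a median of 0.10. Against all other enterocyte-like cells, 0 of the 12 microvillus genes were above 0 in every library and 3 below, with a median of 0.05. For the distal list in that comparison, 1 of 15 was above and 2 were below, with a median of -0.02. The sums of Paneth cell markers were 1612 to 7011 CPM in enterocyte-like members and 1974 to 8973 CPM in the reference cells, so they moved in the same direction as the proximal absorptive genes, and their part in the result was not tested.

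Levels changed with the number of stress genes in a cell. In enterocyte-like cells with fewer than 4 host-defence genes, Edn1 averaged 16.9 CPM over the 5 libraries in cells with 0 stress genes, 88.4 CPM in cells with 3 and 192 CPM in cells with 7. Dusp5 averaged 29.4 CPM in cells with 0, 107 CPM with 3 and 259 CPM with 7. Both means were already higher at 2 stress genes than at 0, so the rise began below the threshold of 3. Apoa4 averaged 4050 CPM in cells with 0 stress genes, 2922 CPM with 3 and 571 CPM with 7, and its values in single libraries ranged from 227 to 8396 CPM in cells with 0. Rbp2 averaged 3391, 2576 and 1153 CPM at 0, 3 and 7. Each of these series is a description, since depth and rule genes order the cells. The levels at 7 stress genes rest on 6, 16, 4, 23 and 63 cells in sham 1, sham 2, sham 3, resection 1 and resection 2. Each library counts equally in the means, so the levels at 7 are not firm.

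**Figure D4:**
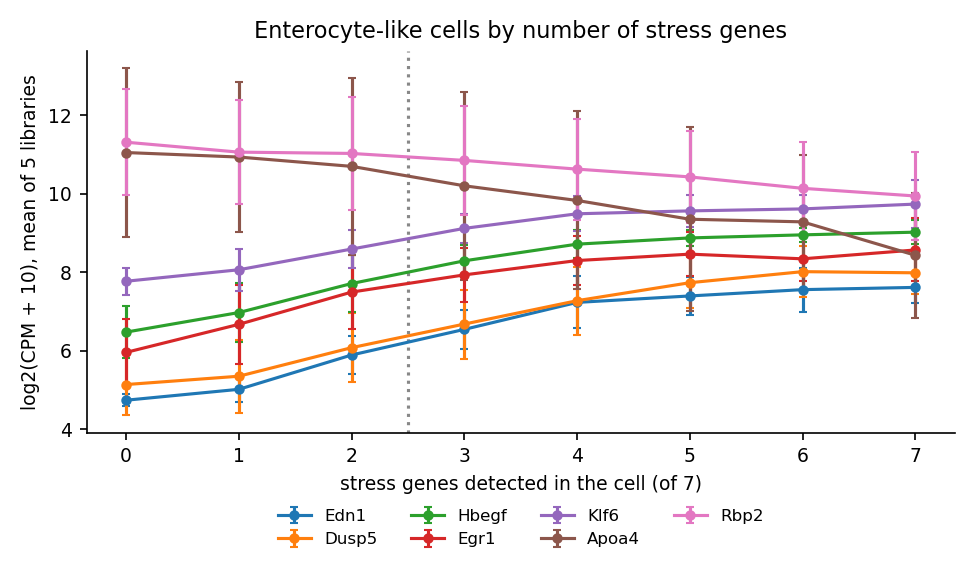
Mean log2(CPM + 10) over the 5 libraries with the SD between libraries (bars) in enterocyte-like cells with fewer than 4 host-defence genes, by the number of the 7 stress genes detected (x axis). The dotted line is the threshold of 3. Edn1 climbs from 16.9 to 192 CPM and Apoa4 descends from 4050 to 571 CPM, with a wide SD for Apoa4. Cells with 7 stress genes number only 4 in sham 3 and 6 in sham 1.

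Members were also set against the enterocyte-like cells that the rule excluded for having 4 or more host-defence genes, as a description. Of the excluded cells in the whole series, 1026 of 1487 were in sham 3, and 79.5 to 94.9% of them had at least 3 stress genes. Sham 2 and resection 1 held 15 and 11 excluded enterocyte-like cells, too few for firm levels. Of the 28 genes above, 10 were lower in members in every library, against 4.16% of all 4690 genes, and 0 were higher in every library. In the 3 libraries with at least 20 excluded enterocyte-like cells, 16 of the 28 were lower in each, against 12.2% of all genes. Cldn23 had a mean log2 ratio of members to excluded cells of -0.44, F3 of -0.37, Rap2b of -0.35, Trib1 of -0.33 and Klf6 of -0.29, each below 0 in every library. Hbegf averaged 408 CPM in members and 409 CPM in the excluded cells, and Egr1 321 and 295 CPM. The stress genes and host-defence genes, which the rule used, are not compared.

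Resection and sham libraries were compared next, first for the abundance of the members. The mean share of filtered cells was 38.7 ± 16.1% in the sham libraries (SD, n = 3) and 43.3 ± 5.98% in the resection libraries (SD, n = 2). The difference of 4.63 percentage points had an exact two-sided permutation p of 0.9, where the smallest p that 10 splits allow is 0.1. Its direction depended on sham 3 and on the exclusion rule. Without sham 3 it was -3.94 points, without the host-defence exclusion -4.73 points, and after thinning -1.48 points. Earlier results of these data put sham 1 and resection 1 in one set of libraries (set A) and sham 2, sham 3 and resection 2 in another (set B), and the difference was -5.85 points within set A and 7.75 points within set B. Among enterocyte-like cells, members were 45.8 ± 21.2% in sham (SD, n = 3) and 50.7 ± 7.14% in resection (SD, n = 2). That difference was 4.84 points (exact permutation p = 0.9). It was -6.84 points without sham 3, -0.21 points without resection 1, -8.17 points within set A and 8.82 points within set B.

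The 7 stress genes themselves were compared over all enterocyte-like cells, members or not, so that the rule did not set their level. This fit was added after the data were seen. In edgeR's quasi-likelihood test with Benjamini-Hochberg adjustment, 0 of 10657 genes passed in this fit (0% in either direction, 469 at an unadjusted p below 0.05). Both resection libraries lay above the sham range for 9.9% of these genes and below it for 7.53%. Areg stood at 658, 642 and 781 CPM (TMM-scaled) in sham 1, 2 and 3 and at 256 and 513 CPM in resection 1 and 2. Both resection libraries lay below the sham range. The log2 fold change of Areg was -0.85 ± 0.39 (SE, edgeR adjusted p = 0.9999). Ereg stood at 136, 77.6 and 96.9 CPM in sham and at 47.8 and 72.3 CPM in resection, again below the sham range (log2 fold change -0.78 ± 0.34 SE, edgeR adjusted p = 0.9999). Within set A the log2 differences were -1.35 for Areg and -1.47 for Ereg, and within set B -0.46 and -0.26. The other 5 did not separate the groups. Atf3 stood at 266, 365 and 433 CPM in sham and at 282 and 345 CPM in resection, and Bmp2 at 190, 112 and 194 CPM in sham and at 189 and 171 CPM in resection.

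Gene expression within the members was then tested between the groups. The sums over all members of a library held 0 of 10758 genes past an edgeR adjusted p of 0.05 (0% higher, 0% lower). At an unadjusted p below 0.05 there were 246, and DESeq2 called 12 genes, all higher after resection. Both resection libraries lay above the sham range for 7.41% of genes and below it for 6.04%. The sums include members of every class. The Paneth marker sum in members was 215403 CPM in sham 1, 45689 in sham 2, 24863 in sham 3, 66061 in resection 1 and 12270 in resection 2. Its part in the comparison was not tested. Enterocyte-like members alone also gave 0 called genes. In bulk sums of this kind, fewer cells with a transcript and less transcript per cell cannot be told apart.

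The 5 named genes on the higher side were Slc2a2, Apoc3, Bst1, Cyp2c65 and Ephx2. Slc2a2, which encodes the glucose and fructose transporter GLUT2, stood at 6.61, 7.24 and 2.28 CPM in the members of sham 1, 2 and 3 and at 104 and 56.2 CPM in those of resection 1 and 2. The groups did not overlap, and the log2 fold change was 3.87 ± 0.49 (SE, edgeR adjusted p = 0.622). DESeq2 gave an adjusted p of 3.31e-09 for Slc2a2. Apoc3 stood at 151, 267 and 87.4 CPM in sham and at 1018 and 949 CPM in resection (log2 fold change 2.54 ± 0.51 SE). Bst1, which encodes a surface ADP-ribosyl cyclase, stood at 27.8, 35.5 and 17.4 CPM against 104 and 97.3 CPM. Cyp2c65, a cytochrome P450, and Ephx2, the soluble epoxide hydrolase, had log2 fold changes of 1.51 ± 0.31 and 2.31 ± 0.48 (SE). The edgeR adjusted p of these last 4 genes was 0.9998, and DESeq2 called 3 of them, Apoc3, Bst1 and Ephx2, with adjusted p of 0.000327, 0.00161 and 0.00535. With the library set as a term in the model, the log2 fold change of Slc2a2 was 3.68 and that of Apoc3 2.56.

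Of the genes on the lower side, Cldn4 and F3 were among the 28 that were higher in members than in low-stress enterocyte-like cells. Neither is particular to members. In enterocyte-like cells excluded by host-defence genes, Cldn4 averaged 90.6 CPM and F3 52.4 CPM, against 63.5 and 36.8 CPM in enterocyte-like members. Cldn4 stood at 154, 62.4 and 50.9 CPM in the members of sham 1, 2 and 3 and at 18.2 and 24.0 CPM in those of resection 1 and 2 (log2 fold change -2.07 ± 0.53 SE). F3 stood at 45.7, 26.2 and 49.0 CPM in sham and at 14.8 and 11.9 CPM in resection (-1.59 ± 0.35 SE). In both genes the resection libraries lay below every sham library, and within the enterocyte-like members alone the log2 fold change of F3 was -1.75. Hk2, the first enzyme of glycolysis, stood at 54.4, 26.1 and 53.01 CPM against 13.3 and 15.2 CPM. Hspa1a, the inducible heat shock protein 70, stood at 30.2, 19.6 and 32.5 CPM against 8.31 and 10.5 CPM. Gstp1, a glutathione transferase, stood at 36.1, 74.0 and 60.2 CPM against 15.3 and 20.9 CPM. The edgeR adjusted p of each of these 5 was 0.9998, and DESeq2 called 0 of the 5. The DESeq2 adjusted p was 0.0525 for Hspa1a and Gstp1, 0.0545 for Cldn4, 0.0551 for F3 and 0.0728 for Hk2.

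Several gene lists leaned to 1 side in the members after resection, and 3 of them are described with their genes. All 13 tested genes of the proximal absorptive list had positive log2 fold changes, with a median of 2.54, against -0.04 over all genes. All 13 of the list also lay above the sham range, against 7.41% of all genes. In this list, Fabp1, the liver-type fatty acid binding protein, stood at 107, 388 and 500.5 CPM in sham members and at 3001 and 1902 CPM in resection members. Earlier results of these data had already shown this list to be higher after resection, so the count is no independent evidence. All 14 tested genes of the endoplasmic reticulum list had negative log2 fold changes, with a median of -0.62. In this list 7 genes lay below the sham range, against 6.04% of all genes. Within it Hspa5 stood at 630, 579 and 633 CPM in sham members and at 404 and 409 CPM in resection members, and Sdf2l1, a chaperone complex member, at 40.6, 61.4 and 78.1 CPM against 29.6 and 30.04 CPM. In the injury and regeneration list 12 of 13 were negative and the median was -0.78. In it 4 genes lay below the sham range, against 6.04% of all genes. Krt7, a keratin, stood there at 73.3, 72.6 and 128 CPM against 27.4 and 40.8 CPM. For the 3 lists 0 genes passed edgeR. In enterocyte-like members alone their medians were 2.55, -0.65 and -0.96, over 13, 13 and 12 tested genes. The endoplasmic reticulum list had medians of -0.44 within set A and -0.57 within set B. Of the other lists, the integrated stress list had 14 of 17 genes negative, with a median of -0.94. Over the 12 of its genes also tested in enterocyte-like members alone, the median was -0.18 there and -0.25 in all members. The heat shock list had 11 of 13 genes negative (median -0.44) and the villus bottom list 12 of 13 (median -0.36). The microvillus list had 12 of 12 genes positive, with a median of 0.22. Among all genes 4722 were positive and 6036 negative.

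**Figure D5:**
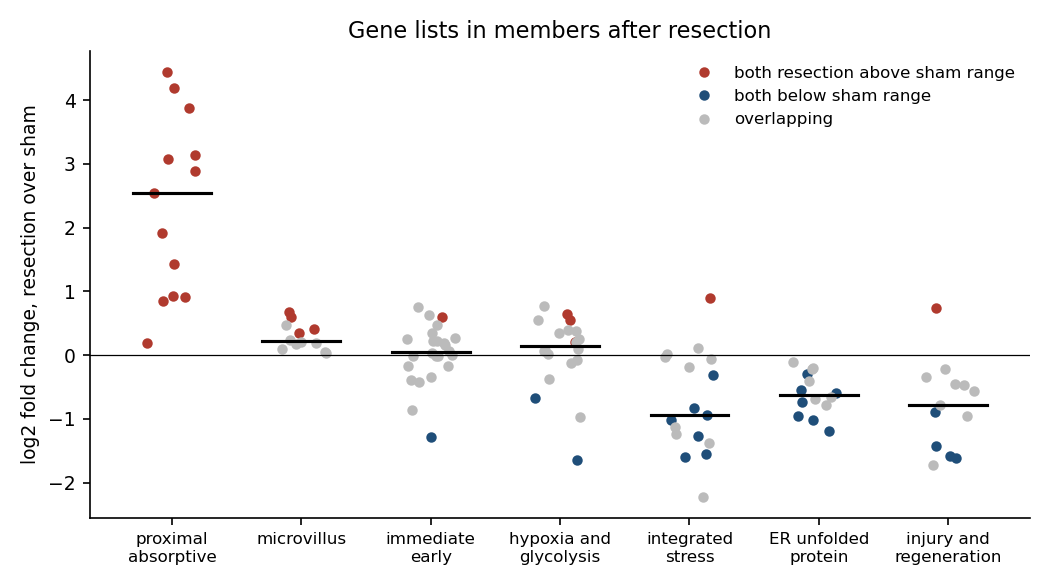
Log2 fold change of resection over sham in the summed counts of members (y axis) for the genes of 7 lists, with the list median as a black bar. Red points lie above and blue points below all 3 sham libraries in both resection libraries. The proximal absorptive genes have a median of 2.54 and the ER unfolded protein genes of -0.62, and no gene passed an edgeR adjusted p of 0.05.

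The immediate-early genes, which set the members apart from low-stress cells, did not share a direction after resection. Of the 24 tested, 13 were positive and 11 negative, with a median of 0.05. The EGF ligand and receptor list had 6 positive and 8 negative genes and a median of -0.05. Within it Hbegf stood at 287, 298 and 268 CPM in sham members and at 364 and 315 CPM in resection members. Both lay above every sham library (log2 fold change 0.26 ± 0.33 SE), as did 7.41% of all genes tested in members. In enterocyte-like members alone, at 457, 350 and 329 CPM in sham and 524 and 380 CPM in resection, Hbegf overlapped between the groups. Dusp6, a negative regulator of ERK, stood at 10.01 to 18.5 CPM in sham members and at 52.8 and 34.1 CPM in resection members (log2 fold change 1.55 ± 0.34 SE). Its edgeR adjusted p was 0.9998.

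Whether resection acted differently in members and in the other enterocyte-like cells was tested as an interaction in edgeR, with the library as a block. Of 10008 genes, 0 passed (0% in either direction, 290 at an unadjusted p below 0.05), and DESeq2 called 0 as well. The genes with the lowest p were Clca4a, Cyr61 and Foxn3. Cyr61, a matricellular protein gene, stood at 26.0, 10.9 and 19.7 CPM in enterocyte-like members and at 23.3, 8.48 and 13.8 CPM in other enterocyte-like cells of sham 1, 2 and 3. In resection 1 and 2 it stood at 19.8 and 9.61 CPM in members and at 5.21 and 4.29 CPM in the others. The difference of the log2 changes was 1.16 ± 0.27 (SE, edgeR adjusted p = 0.9999). Clca4a, of the chloride channel regulator family, had a difference of -0.84 ± 0.19 (SE). For the proximal absorptive list the median difference was -0.04 over 13 genes and for the endoplasmic reticulum list 0.09 over 13 genes, both near 0.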

How the data were processed

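Each library was made with the 10x Chromium single-cell 3′ chemistry, per the labels, which give the Cell Ranger version only with a question mark. The authors deposited raw UMI counts per gene and cell, without normalization, for 27998 genes, and the submitters' processing notes name mm10 and GRCm38. A symbol on several rows (56 symbols) was read from 1 row.

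Cells were clustered in each library (leidenalg 0.10.2, resolution 1) from 2000 variable genes without mitochondrial and rule genes, and clusters were named from markers. Doublets were scored against simulated ones, marking 0.8% of cells per 1000 cells. Counts were summed per library and cell set and compared by the quasi-likelihood F-test of edgeR 4.0.16, after TMM scaling and filterByExpr, under R 4.3.3. DESeq2 1.42.0 was the other tool. Tests were two-sided, and p-values were adjusted by Benjamini-Hochberg with a threshold of 0.05. The scripts were tested on simulated data. Total depth was 11749028 to 41281731 UMIs per library, and the lowest cell held 2354 to 3963 UMIs, so a cell cutoff had been applied before deposit.

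The members, the gene lists and the sets of libraries were chosen with earlier results of these data known. Named genes were the rule genes, the genes past 1.5-fold in every library with the largest ratios (up to 12 higher and 8 lower), up to 4 per list, and the 5 higher and 5 lower with the lowest p after resection, and 3 for the interaction. Genes named beyond this rule (Fabp1, Krt7, Sdf2l1 and others given as list examples) were chosen after their values were seen. Alternatives covered thresholds, depth, exclusion, filters, tools and left-out libraries.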

Additional observations from a re-analysis of the deposited data

Results flagged for a closer look

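In Foxn3, a forkhead transcription factor gene, members exceeded the other enterocyte-like cells in all 3 sham libraries and lay below them in both resection libraries. On the log2 scale members differed by 0.79, 0.42 and 0.52 in the sham libraries. They differed by -0.26 and -0.45 in those of resection. The difference between the groups was -1.17 ± 0.28 (SE) and did not pass the edgeR interaction test (adjusted p = 0.9999). Its levels were low, at 5.83 to 16.3 CPM in members and 3.85 to 10.9 CPM in the others. The gene was picked as 1 of the 3 with the lowest p of 10008, so opposite signs in 5 libraries are part of how it was chosen.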

How the results depend on the processing

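The difference in the share of members among filtered cells changed sign in 6 of 15 alternatives, and among enterocyte-like cells in 7 of 15. Among filtered cells it was -4.73 points without the host-defence exclusion, -1.48 thinned, -4.10 with both (added after seeing the data), -5.85 inside set A, and -3.94 to 12.0 with 1 library left out. Among enterocyte-like cells the same settings gave -9.34, -5.25, -9.24, -8.17 and -6.84 to 13.9 points. Replicate numbers are shared by the labels without being said to pair libraries, and the replicate block gave -3.94 and -6.84 points. Deviations in members correlated at 0.70 for sham 1 with resection 1 and 0.38 for sham 2 with resection 2. Sham 3 and resection 2, which share no number, correlated at 0.53. With 2 resection libraries, each sham library has the same value with the opposite sign for the other resection library. These correlations therefore cannot decide whether the numbers pair libraries. The block called 92 genes after resection where the unblocked fit called 0. These included 7 of the 10 named ones, with adjusted p of 0.00237 for Slc2a2, 0.00701 for Bst1, 0.00784 for Apoc3, 0.0257 for Cyp2c65, 0.0127 for Gstp1, 0.01998 for F3 and 0.0455 for Cldn4. DESeq2 called 12 and the absence of a low-count filter 46. With 1 library left out the count of called genes remained 0, also for the interaction. For the interaction, 6 genes were called with no low-count filter, 2 with at least 4 stress genes and 4 against the low-stress reference (added after seeing the data). Against other enterocyte-like cells, the genes higher in every library numbered 2 with at least 4 stress genes, 28 against the low-stress reference and 1 to 5 with 1 library left out. The genes lower numbered 2 against all other filtered cells, 1 with a pseudocount of 1 CPM and 0 to 1 with 1 library left out.

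The cause of these changes was not tested. With 3 sham and 2 resection libraries the permutation test cannot go below 0.1. Depth limits membership, whose share of filtered cells fell in every library when cells were thinned. Among enterocyte-like cells of sham 3 the share was 22.5% before and after thinning. The host-defence genes were thinned too, so thinning also acts on the exclusion.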
